A study of Arabidopsis thaliana with 58 samples.

Results

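Methylation of the FWA promoter was compared between Arabidopsis thaliana plants carrying TRBIP1-dCas9-MQ1v and plants carrying dCas9-MQ1v. The members were the 4 bisulfite PCR sequencing (BS-PCR-seq) libraries titled for TRBIP1-dCas9-MQ1 and the 4 titled for dCas9-MQ1, 8 of the 58 samples of the series, chosen by title alone. All 8 came from leaf tissue of Columbia-0 plants aged 4 to 5 weeks. By the study's methods both constructs were put into fwa rdr6, which carries the unmethylated fwa epiallele together with a mutation of RDR6 that lowers transgene silencing. The controls thus shared the epiallele, the rdr6 mutation, dCas9 and MQ1v and lacked TRBIP1. Whether the constructs differed in other parts was not tested. The plants were first-generation (T1) transformants, and each stands for 1 transformation event. The promoter driving the fusions, the guide RNAs and the way in which these plants were picked for sequencing were not given in the sources used here. Reference levels, used only as a description, came from 1 fwa rdr6 plant, 3 Col-0 plants and 3 fwa plants.

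FWA encodes a homeodomain transcription factor that delays flowering when it is expressed in leaves. In Col-0 its tandem-repeat promoter is methylated and the gene is silent, whereas the fwa epiallele has lost this methylation and is active. MQ1 (M.SssI) is a bacterial methyltransferase that acts on CG dinucleotides only, MQ1v is a variant with improved specificity, and dCas9 brings it to sites chosen by guide RNAs. TRBIP1 is a plant protein that was linked by the study to the removal of H3K4me3, a histone mark of active promoters. Plants keep CG methylation by copying it at replication, while CHG and CHH methylation (H is A, C or T) depends on other plant methyltransferases.

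The 3 PCR amplicons covered 74 cytosines, all on the minus strand of chromosome 4 in the TAIR10 build. Region 1 (chr4:13038143-13038272) lies upstream of the annotated FWA start at 13038360 and held 3 CG, no CHG and 19 CHH cytosines. Region 2 (chr4:13038356-13038499) covers exon 1 and part of intron 1 and held 5 CG, 2 CHG and 21 CHH cytosines. Region 3 (chr4:13038568-13038695) covers parts of exon 2 and intron 2 and held 6 CG, 1 CHG and 17 CHH cytosines. Coding sequence starts further downstream, at 13039312, so regions 2 and 3 are transcribed but not translated. Regions 2 and 3 lie in the 2 copies of the tandem repeat, which aligned over 189 bases with 181 identical (95.8%).

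The sequences that the site profile turns on are given here from RefSeq TAIR10.1, read 5′ to 3′ on the minus strand. The first is the downstream end of region 1 (chr4:13038238-13038272), where mean CG levels were higher and mean CHH levels lower with TRBIP1, with each counted cytosine in capitals.
Region 1 end: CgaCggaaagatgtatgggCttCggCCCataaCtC
The other 8 are the 4 pairs of CG cytosines that hold matching places in the 2 repeat copies, with the CG in capitals and 10 bases on either side.
13038364 (region 2, chr4:13038353-13038374): aaccctagagCGgcgctcgtat
13038575 (region 3, chr4:13038564-13038585): aaccgtaaagCGgtgctcgtat
13038385 (region 2, chr4:13038374-13038395): ggaccaatggCGaaaagcaaaa
13038596 (region 3, chr4:13038585-13038606): cgaccaatgtCGaaaagcaaaa
13038468 (region 2, chr4:13038457-13038478): atcgataaatCGtaagaagaaa
13038678 (region 3, chr4:13038667-13038688): atcgataaatCGtaagaagaaa
13038476 (region 2, chr4:13038465-13038486): tcccacaaatCGataaatcgta
13038686 (region 3, chr4:13038675-13038696): tcctacaaatCGataaatcgta
Of the 22 bases in each window, 19 were identical in the first pair, 20 in the second, 22 in the third and 21 in the fourth. The end of region 1 holds an inverted repeat (chr4:13038242-13038259), tatgggcttcggcccata, with arms of 7 bases around 4 bases.

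The methylation level of a cytosine is the percentage of reads that kept C at that position, and the level of a region or context is the unweighted mean over its cytosines. All 74 cytosines passed the minimum of 10 reads in every plant. Median reads per cytosine were 31048 to 39392 in the TRBIP1-dCas9-MQ1v plants and 33542 to 41197 in the dCas9-MQ1v plants. The lowest read number at any cytosine was 14587. The widest 95% Wilson interval of a single level in the 8 plants was ±0.764 percentage points, which covers counting error only, as the libraries carried no molecular identifiers that would tell copies of a molecule apart. Plants were therefore the replicates, and p-values come from a two-sided exact permutation test over the 8 plants, in which 4 against 4 cannot give less than 0.0286. They were adjusted by Benjamini-Hochberg over 12 level results and over 8 results on the shape of the profile, and the interval given with each difference is the one at 97.1% confidence from inverting the same test.

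Some libraries stood apart. Plant 1 of dCas9-MQ1v was far from the other 3 of its group in most CG measures and lay close to the TRBIP1-dCas9-MQ1v plants, so the main results are given with and without it. It was singled out by its own values, so p-values without it are descriptive and no separate support for a difference. Its group rests on its title, which its description repeats, and whether that label is right was not tested. Plant 3 of TRBIP1-dCas9-MQ1v had the highest CHH levels of its group. The fwa rdr6 plant had a CG level at FWA of 5.62%, against 0.0806% to 0.228% in the fwa plants. At a further amplicon in the neighbouring gene MSH3 its CG level was 80.9%, while the 8 transformed plants had 6.31% to 22.6% there. Whether it matches the parent of these plants at that locus was not tested.

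CG methylation of FWA was higher in every TRBIP1-dCas9-MQ1v plant than in any dCas9-MQ1v plant. Over the 14 CG cytosines the levels were 54.9%, 57.6%, 45.8% and 47.7% in TRBIP1-dCas9-MQ1v plants 1 to 4. They were 43.1%, 10.48%, 8.52% and 9.19% in dCas9-MQ1v plants 1 to 4. The groups thus did not overlap, but plant 1 of dCas9-MQ1v came within 2.68 percentage points of the lowest TRBIP1-dCas9-MQ1v plant. The means were 51.5% ± 5.67 and 17.8% ± 16.9 (SD, n = 4 each), a 2.89-fold ratio and a difference of 33.7 percentage points (interval 2.68 to 49.1). The exact p was 0.0286, the smallest possible, and 0.137 after adjustment over the 12 levels, so the difference did not pass 0.05. To pass, many of the 12 levels would have to be at the smallest p at once. Without plant 1 the dCas9-MQ1v mean was 9.40% ± 0.995 (SD, n = 3), the difference was 42.1 points and the ratio was 5.48-fold, with an adjusted exact permutation p of 0.0686. Col-0 plants had 86.7% ± 2.07 (SD, n = 3).

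**Figure D1:**
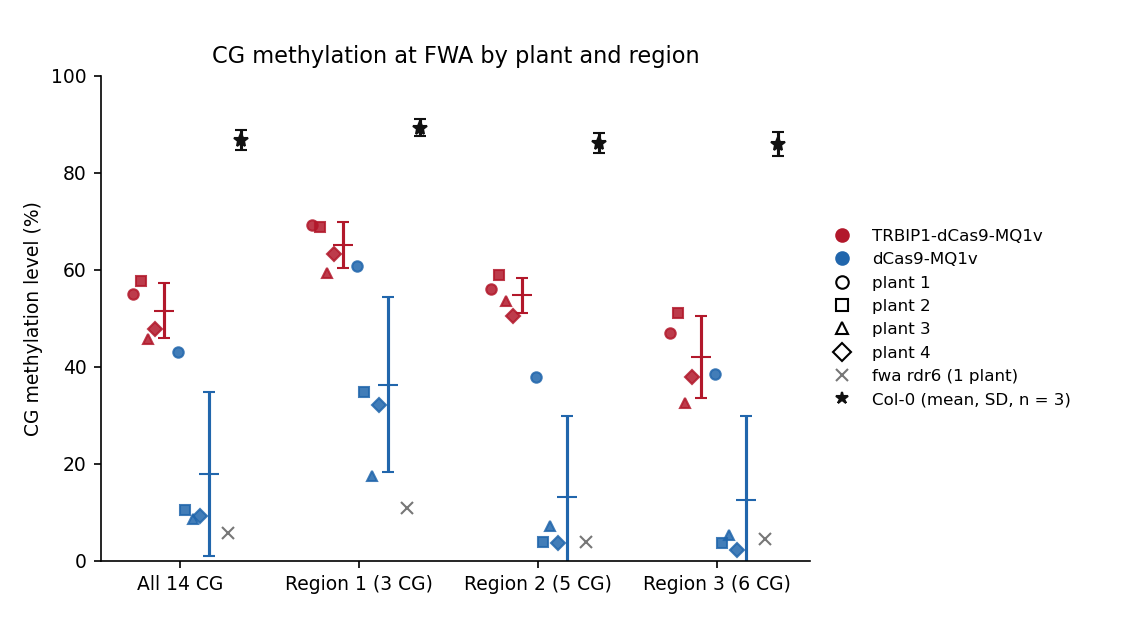
CG methylation level (%) of each plant over all 14 CG cytosines and in each region; symbols mark plants 1 to 4, horizontal marks with bars are group means ± SD (cut at 0 where they reach below it), the cross is the fwa rdr6 plant and the star the Col-0 mean ± SD. The TRBIP1-dCas9-MQ1v plants lie between 45.8% and 57.6% over all 14, and dCas9-MQ1v plant 1, at 43.1%, lies far above the other 3 plants of its group.

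Among the 3 regions, the difference of the group means was largest in the region across the start. No test between regions passed an adjusted p of 0.05 with all plants. In region 1, upstream of the start, the TRBIP1-dCas9-MQ1v plants had CG levels of 69.2%, 68.8%, 59.4% and 63.2%, and the dCas9-MQ1v plants had 60.8%, 34.8%, 17.5% and 32.1%. The groups overlapped there, since plant 1 of dCas9-MQ1v exceeded plant 3 of TRBIP1-dCas9-MQ1v. The difference was 28.8 points (interval −1.38 to 51.6, exact p = 0.0571, adjusted p = 0.137).

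In region 2, across the start, the levels were 55.9%, 58.9%, 53.6% and 50.3% with TRBIP1 and 37.9%, 3.94%, 7.10% and 3.71% without it. Here every TRBIP1-dCas9-MQ1v plant was above every dCas9-MQ1v plant by at least 12.4 points. The difference was 41.5 points (interval 12.4 to 55.2, exact p = 0.0286, adjusted p = 0.137), a 4.16-fold ratio that became 11.1-fold without plant 1 of dCas9-MQ1v. Plants 2 and 4 of dCas9-MQ1v lay near the 3.87% of the fwa rdr6 plant in this region, and plant 3 lay above it. Single cytosines went both ways. At 13038385 plants 2 to 4 had 13.1%, 16.4% and 13.5% against 4.36% in the fwa rdr6 plant. At 13038476 they had 0.749%, 1.88% and 0.558% against 7.51%.

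In region 3, the downstream repeat copy, the TRBIP1-dCas9-MQ1v plants had 46.9%, 51.0%, 32.4% and 37.8% and the dCas9-MQ1v plants had 38.5%, 3.75%, 5.20% and 2.29%. Plant 1 of dCas9-MQ1v was above plants 3 and 4 of TRBIP1-dCas9-MQ1v. The difference was 29.6 points (interval −6.13 to 48.7, exact p = 0.0857, adjusted p = 0.147). Without plant 1 the ratio moved from 3.38-fold to 11.2-fold and the groups separated in all 3 regions, each with an adjusted exact permutation p of 0.0686.

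The shape of the profile was compared within plants. In the dCas9-MQ1v plants CG methylation was higher upstream of the start than across it: the log2 ratio of region 1 to region 2 was 0.68, 3.15, 1.30 and 3.12 in plants 1 to 4. In the TRBIP1-dCas9-MQ1v plants the same log2 ratio was 0.31, 0.22, 0.15 and 0.33, so the regions were closer as a ratio. The groups did not overlap, and the mean log2 ratios differed by −1.81 (interval −2.997 to −0.35, exact p = 0.0286, adjusted p = 0.0762). Without plant 1 of dCas9-MQ1v, left out because of its own values, the difference in log2 ratios was −2.27 (exact permutation test, adjusted p = 0.0457). In points, however, the gap between region 1 and region 2 overlapped between the groups (difference −12.7, interval −25.1 to 2.8, exact p = 0.0857, adjusted p = 0.114). The log2 ratio of the fwa rdr6 plant lay within the range of the dCas9-MQ1v plants and above every TRBIP1-dCas9-MQ1v plant.

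Region 2 exceeded region 3 by 9.04, 7.96, 21.2 and 12.6 points in the TRBIP1-dCas9-MQ1v plants. In the dCas9-MQ1v plants the same gap was −0.63, 0.19, 1.89 and 1.42 points, below every value of the other group. The gap differed by 12.0 points (interval 6.07 to 21.8, exact p = 0.0286, adjusted p = 0.0762), and by 11.5 points without plant 1 (adjusted p = 0.0457 by the exact permutation test). On the log2 scale, however, the ratio of region 2 to region 3 overlapped between the groups (means 0.40 and 0.30, difference 0.10, interval −0.49 to 0.75, exact p = 0.657), and without plant 1 the difference was −0.0044. The gap between regions 1 and 3 was 23.1 ± 4.03 and 23.9 ± 8.65 points (SD, n = 4 each), with an interval of the difference from −13.2 to 14.7.

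At single cytosines, all 14 CG cytosines had a higher mean with TRBIP1. The exact test over the 74 cytosines called none at an adjusted p under 0.05 (0.0% of 74). A call after adjustment over 74 cytosines needs many of them at the smallest p at once. At an unadjusted p under 0.05 the count was 11 of 74 (14.9%), and these are the cytosines whose groups did not overlap, 10 higher with TRBIP1 (13.5% of 74) and 1 lower (1.35%). By context, 5 of the 14 CG cytosines did not overlap and were higher, against 0 of 3 CHG and 5 of 57 CHH. limma on log2 odds called 12 cytosines higher (16.2% of 74) and 0 lower (0.0%), namely 10 CG and 2 CHH, and a quasi-binomial model called 0. Without plant 1 of dCas9-MQ1v, 42 cytosines did not overlap and were higher (56.8%) and 16 were lower (21.6%), among them all 14 CG as higher. limma then called 47 higher (63.5%) and 15 lower (20.3%); it called 26 in all without plant 4 of TRBIP1-dCas9-MQ1v and 7 without plant 2 of dCas9-MQ1v.

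The 5 separated CG cytosines were 13038250 and 13038269 upstream of the start and 13038361, 13038364 and 13038385 in exon 1. The largest difference of all was at 13038385, 25 bases downstream of the start. It was methylated at 91.6%, 94.0%, 91.1% and 92.8% in TRBIP1-dCas9-MQ1v plants 1 to 4 and at 66.3%, 13.1%, 16.4% and 13.5% in dCas9-MQ1v plants 1 to 4. The difference was 65.1 points (interval 24.8 to 80.9, exact p = 0.0286, adjusted over 74 cytosines p = 0.155), and the mean with TRBIP1 was 105% of the Col-0 mean, the only CG cytosine at which it was not below Col-0.

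At 13038364 the levels were 71.0%, 75.7%, 71.4% and 61.6% with TRBIP1 and 37.2%, 1.64%, 6.76% and 1.18% without it. At 13038361, next to the start, they were 61.6%, 68.4%, 59.2% and 63.3% with TRBIP1 and 27.1%, 1.83%, 5.52% and 1.61% without it. Both sites were thus at or near the fwa rdr6 level (1.92% and 1.07%) in plants 2 and 4 of dCas9-MQ1v. Their differences were 58.3 points (interval 24.5 to 74.5) and 54.1 points (interval 32.1 to 66.8), each with an exact p of 0.0286 and an adjusted p of 0.155.

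The 2 CG cytosines with the highest dCas9-MQ1v means, 13038272 and 13038269, were in region 1. At 13038272 the dCas9-MQ1v plants had 91.1%, 60.1%, 16.9% and 57.6%, and the TRBIP1-dCas9-MQ1v plants had 86.6%, 87.4%, 70.1% and 83.2%. Plant 1 of dCas9-MQ1v was above every TRBIP1-dCas9-MQ1v plant, and the difference of 25.4 points had an interval that includes 0 (interval −20.97 to 70.5, exact p = 0.143). At 13038269, only 3 bases away, the dCas9-MQ1v plants had 69.95%, 35.3%, 21.7% and 30.4% and the TRBIP1-dCas9-MQ1v plants had 77.8%, 78.6%, 74.0% and 74.7%, with no overlap. At 13038250 the levels were lower in both groups, 43.0%, 40.5%, 34.1% and 31.5% with TRBIP1 and 21.3%, 9.11%, 14.0% and 8.39% without it, again with no overlap, and plants 2 to 4 of dCas9-MQ1v lay around the 12.7% of the fwa rdr6 plant. The differences at these 2 sites were 37.0 points (interval 4.04 to 56.9) and 24.1 points (interval 10.2 to 34.6), each with an exact p of 0.0286 and an adjusted p of 0.155.

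The 4 CG cytosines of exon 2 behaved alike. At 13038596 the TRBIP1-dCas9-MQ1v plants had 74.98%, 80.2%, 52.9% and 63.6% and the dCas9-MQ1v plants had 62.0%, 9.42%, 10.3% and 6.12%. At 13038606, 13038582 and 13038575 the TRBIP1-dCas9-MQ1v means were 60.5%, 58.3% and 56.2%, and the dCas9-MQ1v means were 15.3%, 17.8% and 15.0%. At all 4 the groups overlapped through plant 1 of dCas9-MQ1v alone and the differences of the means lay between 40.5 and 46.0 points, with exact p-values of 0.0571 to 0.0857.

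The 4 CG cytosines of introns 1 and 2 had lower levels in both groups. At 13038468 the TRBIP1-dCas9-MQ1v plants had 43.1%, 44.5%, 36.1% and 26.4% and the dCas9-MQ1v plants had 42.1%, 2.40%, 4.89% and 1.70%. At 13038476 the means were 10.6% ± 2.20 and 5.03% ± 7.96 (SD, n = 4 each), and at 13038678 they were 6.21% ± 1.77 and 3.11% ± 4.63. At 13038686 they were 2.91% ± 0.710 and 1.49% ± 2.07, both below the 6.42% of the fwa rdr6 plant. In Col-0 the same 4 cytosines, in this order, were methylated at 86.2%, 91.1%, 65.8% and 80.2%, so the TRBIP1-dCas9-MQ1v means were 43.6%, 11.6%, 9.43% and 3.63% of the Col-0 means. The highest of all 8 plants was plant 1 of dCas9-MQ1v at 13038476, 13038678 and 13038686.

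**Figure D2:**
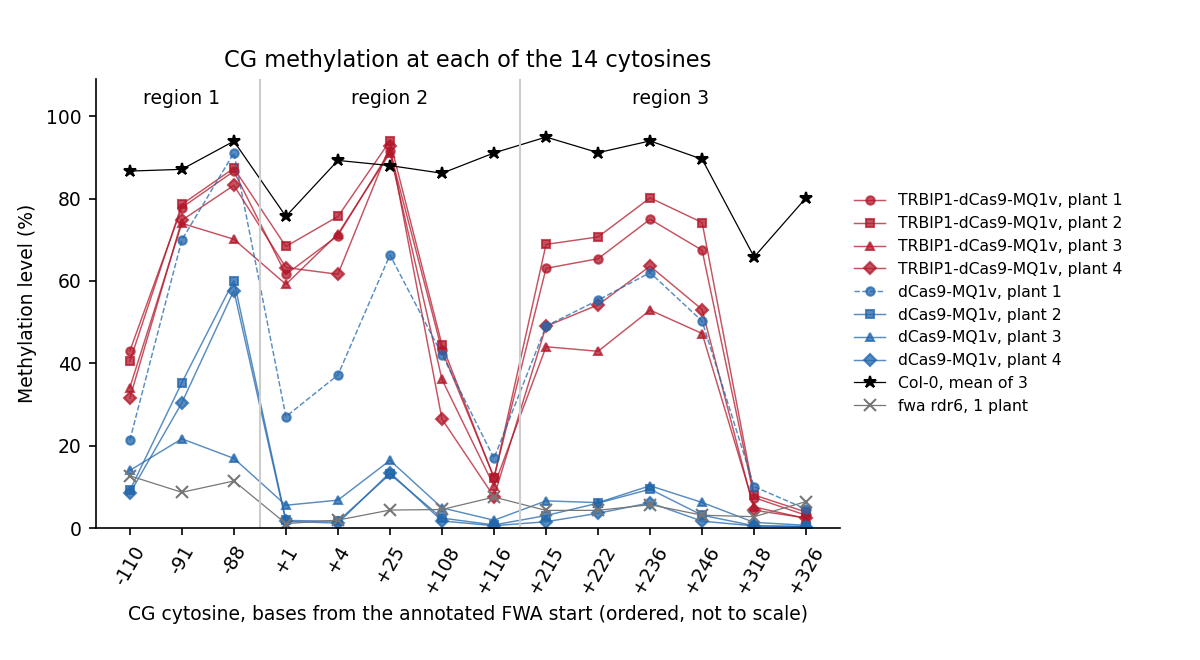
Methylation level (%) of each of the 14 CG cytosines, ordered along FWA by their distance in bases from the annotated start; red lines are the 4 TRBIP1-dCas9-MQ1v plants, blue lines the 4 dCas9-MQ1v plants (plant 1 dashed), black stars the Col-0 mean and grey crosses the fwa rdr6 plant. With TRBIP1 the levels peak at 91.1% to 94.0% at +25 and drop to 7.59% to 12.3% at +116 and 2.30% to 3.85% at +326, while each dCas9-MQ1v plant has its highest level in region 1.

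Across the 14 CG cytosines, the TRBIP1-dCas9-MQ1v mean profile had a Pearson correlation of 0.86 with plant 1 of dCas9-MQ1v, 0.57 with the mean of its plants 2 to 4 and 0.51 with Col-0. These correlations are a description, since the cytosines share libraries and amplicons. In number of cytosines, 9, 9, 6 and 8 of 14 were methylated above 50% in TRBIP1-dCas9-MQ1v plants 1 to 4, and 6, 1, 0 and 1 in dCas9-MQ1v plants 1 to 4. The most methylated CG cytosine was 13038385 in all 4 TRBIP1-dCas9-MQ1v plants, whereas it was 13038272 in plants 1, 2 and 4 and 13038269 in plant 3 of dCas9-MQ1v.

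Matching cytosines of the 2 repeat copies were methylated to different levels. The windows of 13038468 and 13038678 are identical over all 22 bases, yet the region 2 copy was methylated at 37.5% and the region 3 copy at 6.21% in the TRBIP1-dCas9-MQ1v plants, 5.54 to 7.06 times as much in the single plants. In the single dCas9-MQ1v plants the region 2 copy of this pair had 3.40 to 4.48 times the level of the region 3 copy. The same pair stood at 42.1% and 10.0% in plant 1 of dCas9-MQ1v, and at 86.2% and 65.8% in Col-0. At 13038476 and 13038686 the region 2 copy was likewise the higher one in all 4 TRBIP1-dCas9-MQ1v plants, by 5.16 to 9.23 points. It was also the higher one in all 4 dCas9-MQ1v plants, by 0.215 to 12.3 points. For both of these pairs the same order held in all 3 Col-0 plants and in the fwa rdr6 plant.

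For the other pairs the order of the copies depended on the plants. At 13038385 and 13038596 the region 2 copy was higher by 24.5 ± 11.3 points with TRBIP1 and by 5.37 ± 1.71 points with dCas9-MQ1v (SD, n = 4 each), while in all 3 Col-0 plants the region 3 copy was the higher one. As a ratio of the means this pair stood at 1.36 with TRBIP1 and at 1.24 with dCas9-MQ1v, or 1.67 without plant 1 of dCas9-MQ1v. The comparison of the copies was tested in points only, and a ratio over the pairs was not tested. At 13038364 and 13038575 the region 2 copy was higher by 6.78 to 27.4 points in the TRBIP1-dCas9-MQ1v plants, and was higher in 1 of 4 dCas9-MQ1v plants and 0 of 3 Col-0 plants. Over the 4 pairs the region 2 copy exceeded the region 3 copy by 17.4, 16.3, 26.1 and 17.3 points with TRBIP1 and by 9.21, 1.13, 2.78 and 2.11 points without it. The groups did not overlap, and the difference was 15.5 points (interval 7.13 to 25.0, exact p = 0.0286, adjusted p = 0.0762), or 17.3 points and an adjusted p of 0.0457 without plant 1 of dCas9-MQ1v in the exact permutation test. The reverse primer of region 3 also matched the region 2 copy with 2 mismatches, and the effect of such cross-amplification on the gap between copies was not tested.

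**Figure D3:**
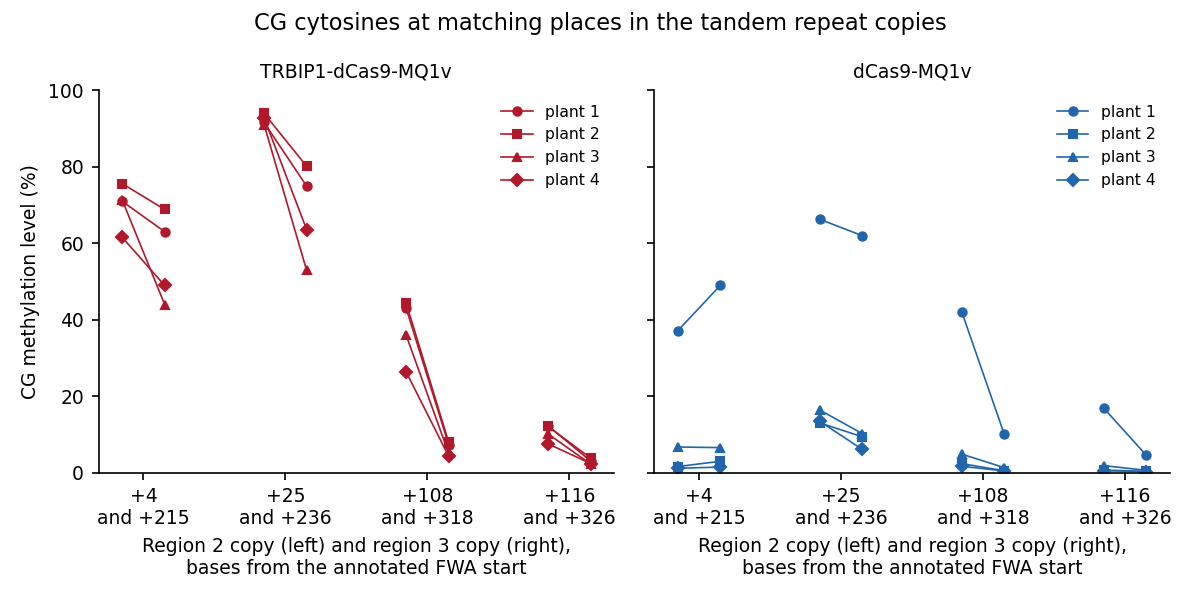
CG methylation level (%) at the 4 pairs of matching cytosines in the tandem repeat, named by their distance in bases from the annotated FWA start; each line joins the region 2 copy (left) and the region 3 copy (right) in 1 plant. In the TRBIP1-dCas9-MQ1v plants every line falls from left to right, and the pair at +108 and +318, identical in its 22 bases, goes from 37.5% to 6.21% on average.

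Outside CG the levels were low and the picture differed by region. Averaged over the 57 CHH cytosines, the TRBIP1-dCas9-MQ1v plants had 0.938%, 0.790%, 2.49% and 0.592%, and the dCas9-MQ1v plants had 0.854%, 1.56%, 1.56% and 2.02%. The groups overlapped widely (difference −0.30 points, interval −1.43 to 1.63, exact p = 0.543), and the sign turned when the median over cytosines was used in place of the mean (0.40 points). The difference was −0.72 points without plant 3 of TRBIP1-dCas9-MQ1v, −0.092 points without its plant 4 and −0.51 points without plant 1 of dCas9-MQ1v. This single number joins opposite directions: all 19 CHH cytosines of region 1 had a lower mean with TRBIP1, and 37 of the 38 in regions 2 and 3 had a higher one.

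In region 1 the CHH level was 1.71%, 1.33%, 2.66% and 1.24% in the TRBIP1-dCas9-MQ1v plants and 1.58%, 4.42%, 4.31% and 5.82% in the dCas9-MQ1v plants. Plants 2 to 4 of dCas9-MQ1v were above all TRBIP1-dCas9-MQ1v plants, and plant 1 was among them. The difference was −2.30 points (interval −4.58 to 1.08, exact p = 0.0857, adjusted p = 0.147), and −3.11 points without plant 1 (adjusted exact permutation p = 0.0686). The fwa rdr6 plant had 1.78% and Col-0 plants 3.97% ± 0.736 (SD, n = 3).

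Most of this CHH signal sat in the stretch printed above, around the inverted repeat and the CG at 13038250. The highest CHH cytosine in each of the 8 plants and in the fwa rdr6 plant was 13038246, with 6.77%, 5.51%, 11.02% and 5.11% in TRBIP1-dCas9-MQ1v plants 1 to 4. It had 6.24%, 18.3%, 16.7% and 24.1% in dCas9-MQ1v plants 1 to 4, 8.02% in the fwa rdr6 plant, 14.9% on average in Col-0 and at most 0.24% in fwa. Plants 2 to 4 of dCas9-MQ1v were therefore above the Col-0 mean at a cytosine where their neighbouring CG, 13038250, was at 8.39% to 14.0% against 86.7% in Col-0.

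The other CHH cytosines of the stretch also had higher means in the dCas9-MQ1v plants. At 13038253 the TRBIP1-dCas9-MQ1v plants had 6.02%, 4.77%, 9.88% and 4.17%, and the dCas9-MQ1v plants had 5.72%, 15.7%, 14.2% and 21.1%. At 13038240 the means were 4.88% ± 1.48 and 12.2% ± 5.23 (SD, n = 4 each), at 13038238 they were 3.48% ± 1.37 and 8.93% ± 4.41, and at 13038245 they were 3.75% ± 1.81 and 7.91% ± 3.29. At 13038247, and at 13038219 further upstream of the stretch, the means were 1.44% and 1.28% with TRBIP1 and 4.33% and 3.30% without it. These 7 are among the 8 CHH cytosines with the largest absolute difference, and at each the exact p was 0.0571 to 0.114 and plant 1 of dCas9-MQ1v lay within the range of the other group. The region 1 share of the summed CHH levels was 60.9%, 56.0%, 35.7% and 69.7% in TRBIP1-dCas9-MQ1v plants 1 to 4 and 61.9%, 94.5%, 92.3% and 96.0% in dCas9-MQ1v plants 1 to 4. The 1 cytosine without overlap and lower with TRBIP1 was another CHH of region 1, 13038162, named after its values were seen, at 0.0898% to 0.200% against 0.227% to 0.895%.

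In region 2 the CHH level was 0.703%, 0.655%, 3.13% and 0.348% in the TRBIP1-dCas9-MQ1v plants and 0.594%, 0.148%, 0.223% and 0.131% in the dCas9-MQ1v plants. In region 3 it was 0.361%, 0.358%, 1.495% and 0.172% with TRBIP1 and 0.357%, 0.103%, 0.125% and 0.107% without it. Plant 3 stood above the other TRBIP1-dCas9-MQ1v plants in both regions, and without it the differences went from 0.94 to 0.29 points in region 2 and from 0.42 to 0.12 points in region 3. With all plants each had an exact p of 0.0571 and an adjusted p of 0.137. All of these means except that of plant 3 lay below the fwa rdr6 plant, at 1.51% and 1.21%, and all plants lay below Col-0, at 6.00% and 5.46%.

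The 5 CHH cytosines whose groups did not overlap with higher levels under TRBIP1 were all in exon 1, between 13038392 and 13038417. limma called 13038408 and 13038417, 2 cytosines named after their values were seen. At 13038417 the levels were 0.591%, 0.678%, 6.29% and 0.367% with TRBIP1 and 0.294%, 0.0576%, 0.139% and 0.0725% without it, with plant 3 of TRBIP1-dCas9-MQ1v far above the other 7 plants. The largest CHH difference in this direction was at 13038428 in intron 1, with 2.40%, 2.12%, 8.85% and 0.744% against 2.48%, 0.224%, 0.473% and 0.163%, where the groups overlapped.

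**Figure D4:**
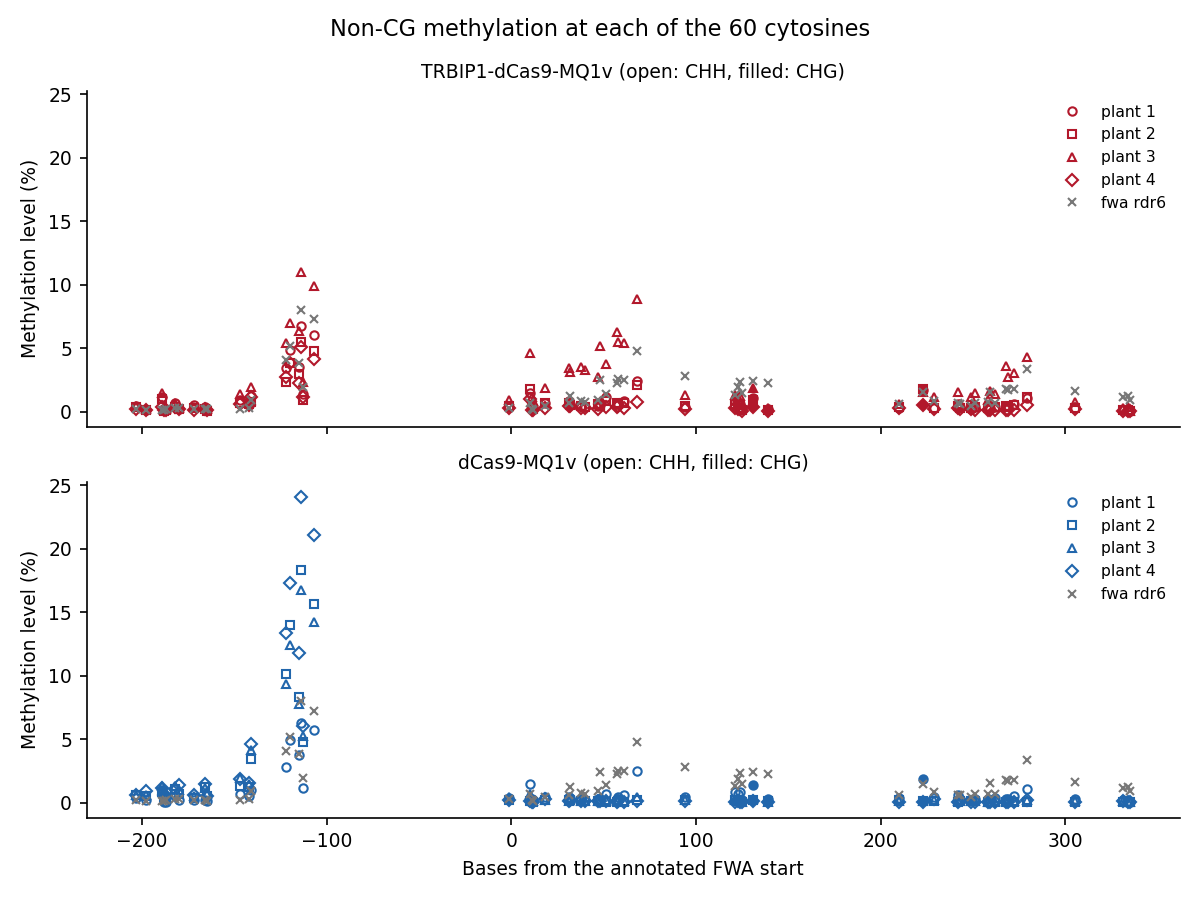
Methylation level (%) of the 60 non-CG cytosines against their distance in bases from the annotated FWA start, for the 4 TRBIP1-dCas9-MQ1v plants (top) and the 4 dCas9-MQ1v plants (bottom); open symbols are CHH, filled symbols CHG and grey crosses the fwa rdr6 plant. Both groups share the peak in region 1, which reaches 24.1% in dCas9-MQ1v plant 4 and 11.02% in TRBIP1-dCas9-MQ1v plant 3, and the highest level in regions 2 and 3 is 8.85%, in TRBIP1-dCas9-MQ1v plant 3.

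CHG methylation was low. Over the 3 CHG cytosines the levels were 0.977%, 0.948%, 1.21% and 0.329% with TRBIP1 and 1.19%, 0.146%, 0.168% and 0.0929% without it (difference 0.47 points, interval −0.86 to 1.11, exact p = 0.257). Without plant 1 of dCas9-MQ1v the difference was 0.73 points and the ratio of the means went from 2.17-fold to 6.38-fold (exact permutation p = 0.0571, adjusted p = 0.114). The fwa rdr6 plant had 2.06% and Col-0 13.1% ± 1.48 (SD, n = 3). At 13038491, the most methylated CHG in Col-0 with 27.1%, the means were 1.04% ± 0.601 and 0.507% ± 0.607 (SD, n = 4 each). At 13038583, where the CHG cytosine is the base on the 5′ side of the CG at 13038582, they were 1.38% ± 0.579 and 0.553% ± 0.874, and at 13038499 they were 0.174% and 0.135%.

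Sorted by the base after the cytosine, the non-CG levels did not separate the groups either. CA cytosines had 0.907% ± 0.728 with TRBIP1 and 0.719% ± 0.0993 without it, CT cytosines 1.63% ± 1.09 and 2.31% ± 0.800, and CC cytosines 1.11% ± 0.734 and 1.53% ± 0.548 (SD, n = 4 each). The exact p-values were 0.914, 0.371 and 0.400. The intervals of the differences were −0.52 to 1.33, −2.31 to 2.01 and −1.48 to 1.42 points, so the test with 4 plants a group did not reject differences inside them. For CA the direction turned without plant 3 of TRBIP1-dCas9-MQ1v, to −0.17 points.

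As a part of all methylation counted, non-CG cytosines contributed 6.84%, 5.60%, 18.5% and 4.94% of the summed levels in TRBIP1-dCas9-MQ1v plants 1 to 4. They contributed 7.97%, 37.8%, 42.8% and 47.3% in dCas9-MQ1v plants 1 to 4, 54.0% in the fwa rdr6 plant and 21.5% ± 3.42 in Col-0 (SD, n = 3). As before, plant 1 of dCas9-MQ1v lay within the range of the other group (difference −25.0 points, interval −42.3 to 10.53, exact p = 0.0571, adjusted p = 0.114). Without this plant, left out because of its own values, the groups separated, with a difference of −33.7 points (exact permutation test, adjusted p = 0.0457).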

How the data were processed

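The authors deposited 1 table per BS-PCR-seq library, made with BSMAP 2.90 on TAIR10 per the labels, with the count of reads that kept C and the count of C plus T for each cytosine, and their fraction. The methods describe the removal of reads with runs of methylated CHH sites, which could lower clustered CHH levels; whether it was applied to these amplicons was not tested. The deposited fraction equalled the ratio of the counts within rounding, and 0 of 1696 cytosine rows went against the base or context in TAIR10.1. Of the 75 cytosines of the 3 regions listed in any plant, 74 had at least 10 reads in all 8 plants and the 7 reference plants, and 0 lay in a primer. The 32 other files were not used.

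Levels were means over cytosines of C over C plus T. Groups were compared over plants by two-sided exact permutation of the difference of means (70 splits) with Benjamini-Hochberg adjustment over 12 levels, 8 shape results and 74 cytosines. Alternatives were limma 3.58.1 in R 4.3.3 on log2 odds with 1 added to both counts, and a quasi-binomial model, with other read minimums, pooling, medians, subtraction of fwa rdr6 and each plant left out. On data simulated for this comparison (74 cytosines, 20 changed, 20 simulations), limma called 100.0% of changed and 1.48% of unchanged cytosines. The quasi-binomial model called 96.0% and 1.20%, and the adjusted exact test 0.0% of both. A call by the exact test needs far more than 20 of 74 cytosines at the smallest p, so its rate was all but fixed in advance. No simulated plant stood apart from its group as plant 1 of dCas9-MQ1v did. These rates therefore do not carry over to the calls in the real data. Python 3.11.15 with numpy 2.4.6, pandas 2.3.3 and scipy 1.17.1 was used.

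Every CG and CHG cytosine was named, with the 8 CHH cytosines of largest absolute difference and the 3 highest in dCas9-MQ1v; exceptions are stated. The comparison, lists and tests were chosen with earlier results of these data known. Labels give both groups replicate numbers 1 to 4, which were treated as names and not as pairs.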

Additional observations from a re-analysis of the deposited data

Results flagged for a closer look

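A plant was marked where its distance from the nearest plant of its group, divided by the range of the 4 plants, was above Dixon's critical value. Of 90 groups of 4 examined, 23 were marked, and chance marks about 1 in 20 of independent groups. The groups examined were not independent, since they measure the same plants and share cytosines, so the 2 rates cannot be compared. Of the 23 marks, 19 were plant 1 of dCas9-MQ1v, each time as the highest. It had a CG level of 43.1% over all 14 cytosines, 37.9% in region 2 and 38.5% in region 3, a CHG level of 1.19% and a CHH level of 0.357% in region 3. In region 2 it was marked at each CG cytosine: 13038361 stood at 27.1%, 13038364 at 37.2% and 13038385 at 66.3%, followed by 13038468 with 42.1% and 13038476 with 16.9%. In region 3 it was marked at each CG cytosine too: 13038575 had 49.0%, 13038582 had 55.3%, 13038596 had 62.0% and 13038606 had 50.2%, while 13038678 and 13038686 had 10.0% and 4.59%. The same plant was marked at the CHG cytosines 13038491 (1.41%) and 13038583 (1.86%) and at the CHH cytosine 13038428 (2.48%). Its depth, a median of 35082 reads per cytosine, lay within the range of the group.

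Plant 3 of TRBIP1-dCas9-MQ1v accounted for the other 4. It was the highest of its group in the CHH level of regions 2 (3.13%) and 3 (1.495%), in the non-CG share of methylation (18.5%) and in the mean gap between the repeat copies (26.1 points). It had the highest level of its group at 53 of the 57 CHH cytosines and at 0 of the 14 CG cytosines.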

How the results depend on the processing

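Read minimums of 1, 100 and 1000, the deposited fractions, exclusion of primer cytosines, means of region means and subtraction of fwa rdr6 kept every direction and every side of the threshold among the 20 levels and shape results for which they gave a value. Minimums of 100 and 1000 and the exclusion of primer cytosines removed no counted cytosine, as the lowest read number was 14587. Subtraction of the same fwa rdr6 levels from every plant cancels in a difference. These settings could not move a difference and are no separate support. Subtraction gave no log2 ratio or non-CG share and the median no non-CG share, because levels at or below 0 or the lack of a sum left none to compute. Pooling reads turned the gap between regions 1 and 3 to 0.26 points and the log2 ratio of region 2 to region 3 to −0.12. The median over cytosines turned the CHH difference to 0.40, the CT difference to 0.57 and the CC difference to 0.41 points; the cause of these turns was not tested.

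With each plant left out in turn, 3 differences changed sign: regions 1 minus 3 (−4.61 to 1.65 points), CA cytosines (−0.17 to 0.38 points) and the log2 ratio of region 2 to region 3 (−0.0052 to 0.24). Leaving out plant 1 of dCas9-MQ1v brought 5 shape results past the threshold, and their ranges over all plants left out were 9.14 to 13.5 points for regions 2 minus 3, −2.27 to −1.45 for the log2 ratio of region 1 to region 2, −2.27 to −1.22 for that of region 1 to region 3, −33.7 to −20.6 points for the non-CG share and 13.2 to 17.3 points for the gap between copies. The CG difference ranged from 30.6 to 42.1 points. The exact test called 0 cytosines in every setting run, limma 12, and limma with 1 plant left out 9, 10, 8 and 26 (TRBIP1-dCas9-MQ1v plants 1 to 4) or 62, 7, 9 and 8 (dCas9-MQ1v plants 1 to 4), fits that were chosen after seeing the data.

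With the replicate number as a block, sign flips of 4 pairs cannot give an exact p below 0.125 and changed no call, and limma with the replicate block called 33 cytosines. The numbers do not pair the plants: deviations of same-numbered plants correlated at 0.088, −0.47, 0.13 and 0.27 over 74 cytosines, and plant 2 of TRBIP1-dCas9-MQ1v correlated best with another number (0.65). At single cytosines, none of the 375 repeats over 25 named cytosines changed direction or call. Read minimums, the exclusion of primer cytosines, subtraction of fwa rdr6 and the replicate block leave the difference at a named cytosine as it was. A call also needs many cytosines at the smallest p at once. This stability was therefore largely fixed in advance. The widest counting error of a cytosine in 1 plant was 0.764 percentage points on either side, from the 95% Wilson interval.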

Other observations

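The same libraries held an amplicon in MSH3, the neighbouring gene that encodes a DNA mismatch repair protein, which entered no comparison above. Its 7 CG cytosines on the plus strand (13044660 to 13044758 of chromosome 4) had mean levels of 21.2%, 22.1%, 12.1% and 18.9% in TRBIP1-dCas9-MQ1v plants 1 to 4 and 22.6%, 8.47%, 11.6% and 6.31% in dCas9-MQ1v plants 1 to 4. The groups overlapped (18.6% ± 4.53 and 12.2% ± 7.24, SD, n = 4 each, exact permutation p = 0.229), and plant 1 of dCas9-MQ1v was the highest of all 8 plants there. The fwa rdr6 plant had 80.9% and the Col-0 plants 77.4% to 82.9%, whereas the fwa plants had 0.061% to 0.355%. The 18 CHH cytosines of the amplicon stood at 0.0594% to 0.0741% in the 8 plants. This bounds unconverted cytosines only among the reads kept, as removal of reads with runs of methylated CHH was not tested. The 2 CHG cytosines had a mean of 26.2% in both groups. Of these, 13044767 stood at 52.5% in plant 1 of TRBIP1-dCas9-MQ1v, 52.1% in plant 1 of dCas9-MQ1v and 57.4% on average in fwa, and the cause was not tested.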
